A study of Homo sapiens with 18 samples.

Results

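The genes described here are the 9 genes of polyamine synthesis and catabolism ODC1, AMD1, SRM, SMS, SAT1, PAOX, OAZ1, OAZ2 and AZIN1, taken by gene symbol. All 9 passed the filter on low signal, among 19775 genes measured and 13607 tested. The array carries 19 probe sets that list only 1 of these symbols, 18 of which were bright enough to test. A further probe set lists ZSWIM8 and SAT1 together and was not used. RNA was measured on 18 Affymetrix arrays in 6 groups of 3. LNCaP is a human prostate cancer line that responds to androgen. LNCaP-abl was derived from it and grows without androgen. LNCaP carried control siRNA or siRNA against TRIM24, a chromatin reader and nuclear receptor cofactor, and each was given either ethanol vehicle or the androgen dihydrotestosterone (DHT) at 10 nM. LNCaP-abl carried control or TRIM24 siRNA and was given vehicle only. Transfection lasted 48 h and treatment 24 h in every group, and before treatment the medium held serum stripped of hormones with charcoal and dextran. The comparisons ask how the genes respond to DHT, to loss of TRIM24 and to the change from LNCaP to LNCaP-abl.

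Polyamines are small cations made from ornithine and methionine. ODC1, ornithine decarboxylase, makes putrescine. AMD1 decarboxylates S-adenosylmethionine to supply aminopropyl groups, which SRM, spermidine synthase, adds to putrescine and SMS, spermine synthase, adds to spermidine. SAT1 acetylates spermidine and spermine, and PAOX oxidises the acetylated forms back towards putrescine. The antizymes OAZ1 and OAZ2 bind ODC1 protein and send it to the proteasome, and AZIN1, the antizyme inhibitor, binds antizyme in its place. The prostate secretes large amounts of spermine into seminal fluid, and its polyamine synthesis is known to respond to androgen. Much of the control of ODC1, AMD1 and the antizymes acts on translation and protein turnover, which arrays of RNA do not measure.

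TRIM24 was lower on every array with its siRNA than on every matching control array, with log2 differences from -1.99 to -2.14. Arrays of 1 group correlated at 0.996 to 0.998. Whether the 3 arrays of a group stem from separate cultures is not said in the labels. The p-values therefore reflect array-to-array spread that may be technical, and the number of arrays limits the precision. Values below are log2 expression values; differences are given with their SE, and p-values come from limma with Benjamini-Hochberg adjustment over all tested genes. As to cell identity, all 6 measured luminal markers passed the filter, while KLK3 had a group mean of 5.70 in its lowest group, below the filter at 5.88. The mean level of the 6 differed between groups. With control siRNA it was 10.01 to 10.06 in LNCaP with vehicle, 11.44 to 11.48 with DHT and 9.20 to 9.25 in LNCaP-abl. The basal keratins KRT5 and KRT14 and the leukocyte gene PTPRC stayed below the filter, but a further leukocyte gene, CD3E, passed it narrowly with group means from 5.76 to 5.903. All 4 fibroblast markers passed: COL1A1 had group means from 7.24 to 7.49, COL3A1 from 4.58 to 6.67, PDGFRB from 5.80 to 6.27 and DCN from 5.80 to 6.003. In these bulk samples fewer cells of a kind and less RNA per cell cannot be told apart.

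DHT raised the synthesis enzymes together with the acetylase SAT1. With control siRNA 5 of the 9 genes rose (ODC1, AMD1, SRM, SMS and SAT1), where 19.4% of all tested genes rose, and 1 fell (OAZ2), where 26.4% of all fell. The median difference of the 9 was 0.14, beside -0.036 for all tested genes. With TRIM24 siRNA the same 5 rose, beside 16.9% of all genes, and OAZ2 and AZIN1 fell, beside 26.6%. There the median of the 9 was 0.10, beside -0.037. The rises of ODC1, SMS and SAT1 passed under all 10 alternative settings and without each array. That of AMD1 with TRIM24 siRNA was lost in 8 of the 10, and those of SRM in 2 with control siRNA and 1 with TRIM24 siRNA. ODC1, SRM and SMS each have a single probe set, so settings with another choice of probe set could not change their differences. The same DHT groups had higher mitotic markers: 6 of 8 rose with control siRNA and 4 of 8 with TRIM24 siRNA, beside the same 19.4% and 16.9%. The mean level of the 4 fibroblast markers was lower with DHT. With control siRNA it went from between 6.12 and 6.17 to between 5.88 and 5.92. With TRIM24 siRNA it went from between 6.13 and 6.18 to between 5.86 and 6.0025. In each, 1 of the 4 was called lower, near the 26.4% and 26.6% of all genes. COL3A1 had the widest range of group means of the 4, from 4.58 to 6.67. The part of either list in the polyamine result was not tested.

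TRIM24 knockdown lowered more of the 9 genes than it raised. In LNCaP with vehicle ODC1, SAT1, OAZ2 and AZIN1 fell, beside 18% of all genes, and AMD1 and SMS rose, beside 20.5%. With DHT present SMS, SAT1 and AZIN1 fell, beside 20.8% of all genes, and 0 rose in limma, also at an unadjusted p under 0.05, beside 19.4%. In LNCaP-abl ODC1, SRM, SMS, SAT1, OAZ2 and AZIN1 fell, beside 28.8% of all genes, and PAOX rose, beside 16.7%. The medians of the 9 were -0.11, -0.078 and -0.15, beside 0.0037, 0.0066 and -0.011 for all genes. SAT1 and AZIN1 were the genes that fell in all 3 comparisons.

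**Figure D1:**
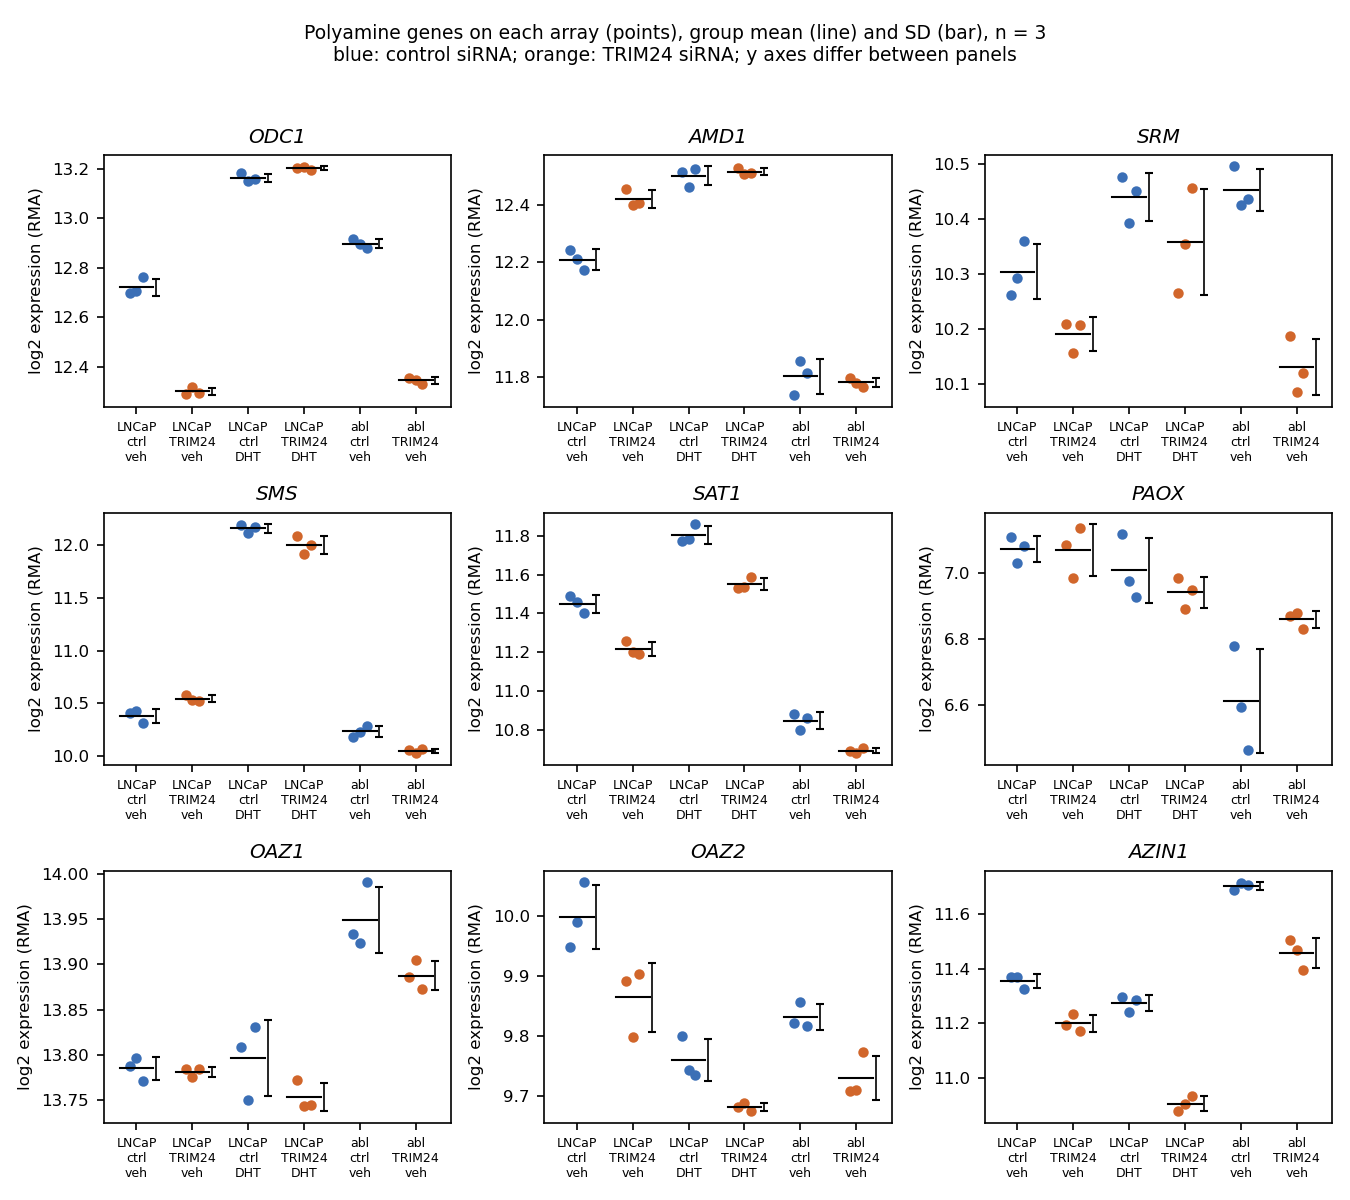
Log2 expression of each polyamine gene on each of the 18 arrays (points), with the group mean (line) and SD (bar, n = 3), by cell line, siRNA and treatment; the y axes differ between genes. SMS stands between 11.92 and 12.19 in the LNCaP groups with DHT and between 10.03 and 10.58 in every other group, and ODC1 is highest with DHT under either siRNA.

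The 250 bases upstream of the first listed transcription start are shown for the 4 synthesis enzymes, because these rose together with DHT. They come from RefSeq on GRCh38.p14, whose promoter table held 7 of the 9 genes; PAOX and AZIN1 are not among them. The window of ODC1 lies at chr2:10448328-10448577 on the minus strand, that of AMD1 at chr6:110874535-110874784 on the plus strand, that of SRM at chr1:11060019-11060268 on the minus strand and that of SMS at chrX:21940459-21940708 on the plus strand. For ODC1, 30 bases at a second listed start, chr2:10448024-10448053 on the minus strand, are added because they hold CACGTG. Capitals mark TATAA, the TATA box, in ODC1 and AMD1, and CACGTG, the E-box that MYC and its partner MAX bind, in SRM and at the second start of ODC1.
ODC1: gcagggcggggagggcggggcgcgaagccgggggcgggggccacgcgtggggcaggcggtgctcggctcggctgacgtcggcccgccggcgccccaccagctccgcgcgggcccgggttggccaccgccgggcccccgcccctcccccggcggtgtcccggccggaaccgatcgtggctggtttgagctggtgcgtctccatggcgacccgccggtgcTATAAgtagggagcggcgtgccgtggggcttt
ODC1 second start: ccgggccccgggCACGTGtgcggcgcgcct
AMD1: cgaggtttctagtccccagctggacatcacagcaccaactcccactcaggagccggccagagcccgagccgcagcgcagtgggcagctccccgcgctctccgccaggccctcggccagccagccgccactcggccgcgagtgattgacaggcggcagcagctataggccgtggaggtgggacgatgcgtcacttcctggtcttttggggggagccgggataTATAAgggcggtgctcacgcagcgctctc
SRM: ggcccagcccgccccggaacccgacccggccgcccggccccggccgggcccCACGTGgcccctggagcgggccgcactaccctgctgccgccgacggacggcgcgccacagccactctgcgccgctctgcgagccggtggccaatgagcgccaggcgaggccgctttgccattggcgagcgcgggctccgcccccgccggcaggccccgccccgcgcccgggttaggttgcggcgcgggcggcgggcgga
SMS: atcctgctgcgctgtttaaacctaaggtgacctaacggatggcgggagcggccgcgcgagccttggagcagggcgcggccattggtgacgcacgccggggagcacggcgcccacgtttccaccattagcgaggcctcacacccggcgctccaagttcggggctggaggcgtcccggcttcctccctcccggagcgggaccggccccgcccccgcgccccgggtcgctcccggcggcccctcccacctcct
Both strands were searched. TATAA begins 32 bases before the start in ODC1 and 29 bases before it in AMD1, and 18.9% of 35116 RefSeq promoter windows of this length hold it on either strand. CACGTG begins 199 bases before the start in SRM and 29 bases before the second start of ODC1, and 6.34% of windows hold it. AGAACA, the hexamer of the androgen response element, was in none of the windows of these 7 genes, and 12.4% of all windows hold it. None of the 3 motifs was in the windows of SMS, SAT1, OAZ1 or OAZ2. The window of a second listed AMD1 start, chr6:110814367-110814616, held none of them either, and that of the second ODC1 start held no TATAA. These matches describe the letters of the windows and say nothing of binding.

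ODC1, the first enzyme of the pathway, was the member whose response to knockdown depended most plainly on hormone. With vehicle the LNCaP arrays read 12.70, 12.70 and 12.76 with control and 12.29, 12.32 and 12.29 with TRIM24 siRNA. With DHT they read 13.18, 13.15 and 13.16 with control and 13.20, 13.21 and 13.20 with TRIM24 siRNA. In LNCaP-abl they read 12.92, 12.90 and 12.88 with control and 12.36, 12.35 and 12.33 with TRIM24 siRNA. The knockdown arrays are thus lowest without hormone in both lines, and under DHT they lie just above the controls, with no overlap between any pair of neighbouring groups. Knockdown lowered ODC1 by 0.42 with vehicle (difference -0.42 ± 0.03, adjusted p = 5.39e-09), a 1.34-fold fall. In LNCaP-abl it fell by 0.55 (difference -0.55 ± 0.03, adjusted p = 2.13e-10), or 1.47-fold. Under DHT the knockdown difference was 0.039 ± 0.03 (adjusted p = 0.291, 95% interval -0.019 to 0.098), which did not pass although the arrays did not overlap. The knockdown differences with DHT and with vehicle differed by 0.46 ± 0.04 (interaction, adjusted p = 5.86e-06). Seen from the hormone, DHT raised ODC1 1.36-fold with control siRNA (0.44 ± 0.03, adjusted p = 1.41e-09) and 1.87-fold with TRIM24 siRNA (0.90 ± 0.03, adjusted p = 1.88e-13). ODC1 has a single probe set on the array. Its mean over the 18 arrays lay above 98.2% of tested genes, and its DHT arrays were its brightest. Changes can be compressed near the top of the scale. Whether this affected the knockdown difference under DHT, and with it the interaction, was not tested.

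AMD1, which supplies the aminopropyl donor, gave different knockdown results with its 2 probe sets. On the brighter one the LNCaP vehicle arrays read 12.25, 12.21 and 12.17 with control and 12.46, 12.40 and 12.41 with TRIM24 siRNA. With DHT they read 12.51, 12.46 and 12.53 with control and 12.53, 12.51 and 12.51 with TRIM24 siRNA. In LNCaP-abl they read 11.74, 11.86 and 11.81 with control and 11.80, 11.78 and 11.77 with TRIM24 siRNA. LNCaP-abl is lowest, both DHT groups overlap each other, and with vehicle the knockdown arrays lie above the controls without overlap. Knockdown raised AMD1 by 0.21 ± 0.03 with vehicle (adjusted p = 0.000155), while the differences with DHT (0.015, 95% interval -0.059 to 0.089) and in LNCaP-abl (-0.021, 95% interval -0.095 to 0.054) did not pass. On the second probe set the knockdown difference was -0.011 with vehicle (adjusted p = 0.857), -0.33 with DHT (adjusted p = 2.16e-06) and -0.10 in LNCaP-abl (adjusted p = 0.0302, every probe set tested alone). Under DHT that probe set read 12.28, 12.30 and 12.32 with control and 11.92, 12.005 and 11.99 with TRIM24 siRNA. Both probe sets gave a rise with DHT under control siRNA, at 0.29 ± 0.03 (adjusted p = 3.71e-06) on the brighter one and 0.30 on the second (adjusted p = 4.36e-06). The knockdown difference was lower with DHT than with vehicle on both, by -0.20 ± 0.05 on the brighter one (interaction, adjusted p = 0.0191) and by -0.32 on the second (adjusted p = 0.00118). On the brighter one this was lost without the first LNCaP knockdown array with vehicle (-0.18, adjusted p = 0.0546) and under a covariate for 3' to 5' signal, described below (adjusted p = 0.0597). The rise with DHT under TRIM24 siRNA, 0.096 ± 0.03 (adjusted p = 0.0362), was lost in 8 of 10 alternative settings, down to -0.021 on the second probe set, and when any of 5 arrays was left out.

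SRM, spermidine synthase, measured by a single probe set, moved by small amounts. With vehicle the LNCaP arrays read 10.26, 10.29 and 10.36 with control and 10.21, 10.16 and 10.21 with TRIM24 siRNA. With DHT they read 10.48, 10.39 and 10.45 with control and 10.27, 10.35 and 10.46 with TRIM24 siRNA. In LNCaP-abl they read 10.50, 10.43 and 10.44 with control and 10.19, 10.09 and 10.12 with TRIM24 siRNA. Groups neighbouring in level overlap except at 1 step, between the LNCaP vehicle groups with control and TRIM24 siRNA. Knockdown lowered SRM in LNCaP-abl by 0.32 (difference -0.32 ± 0.05, adjusted p = 3.71e-05). In LNCaP the knockdown difference was -0.11 ± 0.05 with vehicle (adjusted p = 0.068) and -0.081 ± 0.05 with DHT (adjusted p = 0.191), so neither passed. The first passed with a stricter filter (adjusted p = 0.0498), after quantile normalization (adjusted p = 0.0317), under the 3' to 5' covariate (adjusted p = 0.0378) and without the first (adjusted p = 0.0436) or the third (adjusted p = 0.0396) LNCaP knockdown array with DHT. The second passed without the latter array (-0.13, adjusted p = 0.037). The knockdown differences of the lines differed by -0.21 ± 0.07 (interaction, adjusted p = 0.0282), but this was lost after quantile normalization (-0.15, adjusted p = 0.0823), with no filter on low signal (adjusted p = 0.0516) and when any of 7 arrays was left out. DHT raised SRM by 0.14 ± 0.05 with control siRNA (adjusted p = 0.0264) and by 0.17 ± 0.05 with TRIM24 siRNA (adjusted p = 0.00786). The first of these rises did not pass after quantile normalization (0.091, adjusted p = 0.102), with only the groups compared in the fit (adjusted p = 0.0525) or without any of 4 arrays. The second did not pass without the third knockdown array with DHT (0.12, adjusted p = 0.0508) or with the 3' to 5' covariate (adjusted p = 0.107).

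SMS, spermine synthase, measured by a single probe set, had the largest response of the 9 genes to DHT. Under control siRNA LNCaP arrays read 10.41, 10.43 and 10.31 with vehicle and 12.19, 12.12 and 12.17 with DHT. Under TRIM24 siRNA they read 10.58, 10.53 and 10.52 with vehicle and 12.09, 11.92 and 12.001 with DHT. In LNCaP-abl they read 10.18, 10.23 and 10.29 with control and 10.06, 10.03 and 10.07 with TRIM24 siRNA. Every DHT array stands above every array without hormone, and no neighbouring groups overlap. DHT raised SMS 3.43-fold with control siRNA (1.78 ± 0.05, adjusted p = 2.29e-14) and 2.75-fold with TRIM24 siRNA (1.46 ± 0.05, adjusted p = 2.12e-13). The DHT response was smaller after knockdown, by 0.32 on the log2 scale (interaction -0.32 ± 0.06, adjusted p = 0.00493). Within LNCaP, knockdown itself moved SMS in opposite directions with and without hormone. With vehicle it rose by 0.16 ± 0.05 (adjusted p = 0.0095), which did not pass without the third control array (0.13, adjusted p = 0.0513). With DHT it fell by 0.15 (difference -0.15 ± 0.05, adjusted p = 0.0117), which did not pass without the second knockdown array (-0.11, adjusted p = 0.0735) or with only the groups compared in the fit (adjusted p = 0.0536). Neither of these LNCaP differences passed with the 3' to 5' covariate (adjusted p = 0.0695 with vehicle and 0.318 with DHT). In LNCaP-abl, also without hormone, SMS fell by 0.19 with knockdown (difference -0.19 ± 0.05, adjusted p = 0.00328), and the 2 lines differed in this by -0.35 ± 0.06 (interaction, adjusted p = 0.000928).

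**Figure D2:**
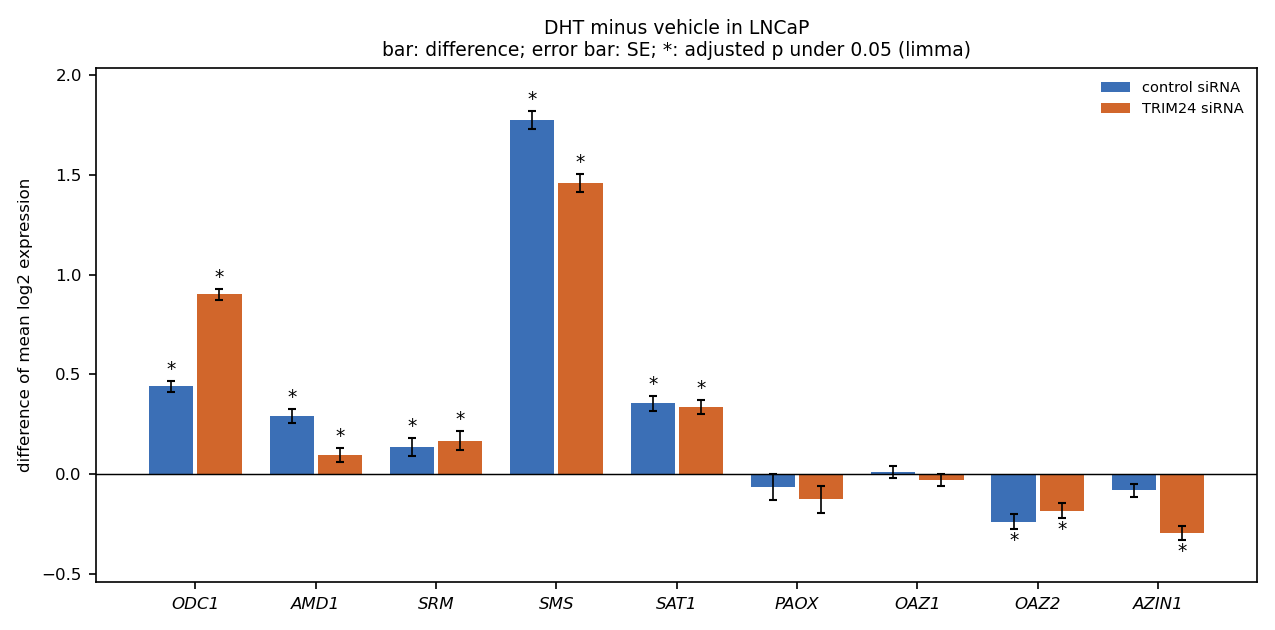
Difference of mean log2 expression between DHT and vehicle in LNCaP for the 9 polyamine genes, with control or TRIM24 siRNA (bars, SE as error bars, n = 3 arrays per group; stars mark an adjusted p under 0.05). SMS stands out at 1.78 and 1.46, ODC1 is larger with TRIM24 siRNA (0.90) than with control siRNA (0.44), and OAZ2 lies below 0 with both.

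SAT1, which starts polyamine breakdown by acetylation, was lower with knockdown and higher with DHT in each comparison made. With vehicle the LNCaP arrays read 11.49, 11.46 and 11.40 with control and 11.25, 11.20 and 11.19 with TRIM24 siRNA. With DHT they read 11.77, 11.78 and 11.86 with control and 11.53, 11.54 and 11.59 with TRIM24 siRNA. In LNCaP-abl they read 10.88, 10.80 and 10.86 with control and 10.69, 10.68 and 10.71 with TRIM24 siRNA. DHT arrays are high, LNCaP-abl arrays low, and in each setting the knockdown arrays lie under the controls without overlap. Knockdown lowered SAT1 by 0.23 with vehicle (difference -0.23 ± 0.04, adjusted p = 8.36e-05), by 0.25 with DHT (-0.25 ± 0.04, adjusted p = 3.72e-05) and by 0.15 in LNCaP-abl (-0.15 ± 0.04, adjusted p = 0.00256; -0.28 and -0.30 on its further probe sets). The knockdown differences with DHT and vehicle differed by -0.018 (95% interval -0.13 to 0.092), and those of the lines by 0.080 (95% interval -0.030 to 0.19); neither interaction passed. DHT raised SAT1 by 0.36 ± 0.04 with control siRNA (adjusted p = 6.31e-07) and by 0.34 ± 0.04 with TRIM24 siRNA (adjusted p = 1.16e-06). The 2 further SAT1 probe sets had the same signs in all of these comparisons except the interactions, and 1 of them, at -0.14 for knockdown with DHT, did not pass there (adjusted p = 0.0569). PAOX, the oxidase that acts after SAT1, was dim, between 6.46 and 7.14 on its brightest probe set. In LNCaP-abl its control arrays read 6.78, 6.59 and 6.46 and its knockdown arrays 6.87, 6.88 and 6.83, so the knockdown arrays were higher without overlap. This rise of 0.25 ± 0.07 (adjusted p = 0.0068) was not seen on the 3 further probe sets, which gave -0.043, 0.013 and -0.15 and did not pass, nor on the mean of all 4 (0.016, adjusted p = 0.798). DHT left PAOX at -0.065 ± 0.07 with control siRNA (95% interval -0.21 to 0.078) and -0.13 ± 0.07 with TRIM24 siRNA (95% interval -0.27 to 0.016), and neither passed.

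OAZ1, the main antizyme, had the smallest SD over the 18 arrays of the 9 genes, 0.074. Its arrays lay between 13.74 and 13.99, near the top of the scale, where the lowest array maximum was 14.73 and changes can be compressed. DHT differences were 0.012 ± 0.03 and -0.028 ± 0.03 with control and TRIM24 siRNA, and the knockdown differences were -0.0038, -0.043 and -0.061 in vehicle-treated LNCaP, DHT-treated LNCaP and LNCaP-abl; none passed. The 95% intervals of these 5 differences lay between -0.12 and 0.075. A second OAZ1 probe set fell by 0.11 with knockdown under DHT (difference -0.11, adjusted p = 0.0109), and the difference in LNCaP-abl passed with array medians centred (-0.10, adjusted p = 0.036). OAZ2, a further antizyme, read 9.95, 9.99 and 10.06 with control siRNA and vehicle and 9.80, 9.74 and 9.73 with control siRNA and DHT. With TRIM24 siRNA it read 9.89, 9.80 and 9.90 with vehicle and 9.68, 9.69 and 9.67 with DHT. The DHT arrays lie below the vehicle arrays under both siRNAs without overlap. OAZ2 fell with DHT by 0.24 with control siRNA (difference -0.24 ± 0.04, adjusted p = 5.86e-05) and by 0.18 with TRIM24 siRNA (-0.18 ± 0.04, adjusted p = 0.000738). On a second OAZ2 probe set these were -0.069 (adjusted p = 0.151) and -0.11 (adjusted p = 0.0284). Knockdown lowered OAZ2 by 0.13 with vehicle (difference -0.13 ± 0.04, adjusted p = 0.00896) and by 0.10 in LNCaP-abl (-0.10 ± 0.04, adjusted p = 0.036). The first was 0.0037 on the second probe set and did not pass on the mean of both (-0.065, adjusted p = 0.137), with only the groups compared (adjusted p = 0.0583) or without the second knockdown array (-0.10, adjusted p = 0.0569). The second was -0.17 on the second probe set, and it did not pass after quantile normalization (-0.044, adjusted p = 0.403), with no filter (adjusted p = 0.0684), with only the groups compared (adjusted p = 0.078), with the 3' to 5' covariate (adjusted p = 0.0514) or without any of 5 arrays.

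AZIN1, the antizyme inhibitor, fell with knockdown in every setting. With vehicle the LNCaP arrays read 11.37, 11.37 and 11.33 with control and 11.20, 11.23 and 11.17 with TRIM24 siRNA. With DHT they read 11.30, 11.24 and 11.29 with control and 10.88, 10.91 and 10.93 with TRIM24 siRNA. In LNCaP-abl they read 11.69, 11.72 and 11.71 with control and 11.51, 11.47 and 11.40 with TRIM24 siRNA. The combination of DHT and knockdown gives the lowest arrays and LNCaP-abl with control siRNA the highest, and no neighbouring groups overlap. Knockdown lowered AZIN1 by 0.16 with vehicle (difference -0.16 ± 0.03, adjusted p = 0.00159), by 0.37 with DHT (-0.37 ± 0.03, adjusted p = 2.69e-07) and by 0.25 in LNCaP-abl (-0.25 ± 0.03, adjusted p = 2.05e-05). A second AZIN1 probe set gave -0.14 (adjusted p = 0.0784), -0.35 (adjusted p = 0.000207) and -0.33 (adjusted p = 0.000309), so the fall with vehicle did not pass there, nor on the mean of its 3 probe sets (-0.074, adjusted p = 0.253). The fall was larger with DHT than with vehicle (interaction -0.21 ± 0.05, adjusted p = 0.00948), and on the second probe set that difference was -0.21 (adjusted p = 0.151) and on the mean -0.19 (adjusted p = 0.09). DHT lowered AZIN1 by 0.29 with TRIM24 siRNA (difference -0.29 ± 0.03, adjusted p = 2.17e-06), and with control siRNA the difference of -0.082 ± 0.03 did not pass (adjusted p = 0.059), though it did after quantile normalization (-0.11, adjusted p = 0.00869) and with a stricter filter (adjusted p = 0.0424).

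**Figure D3:**
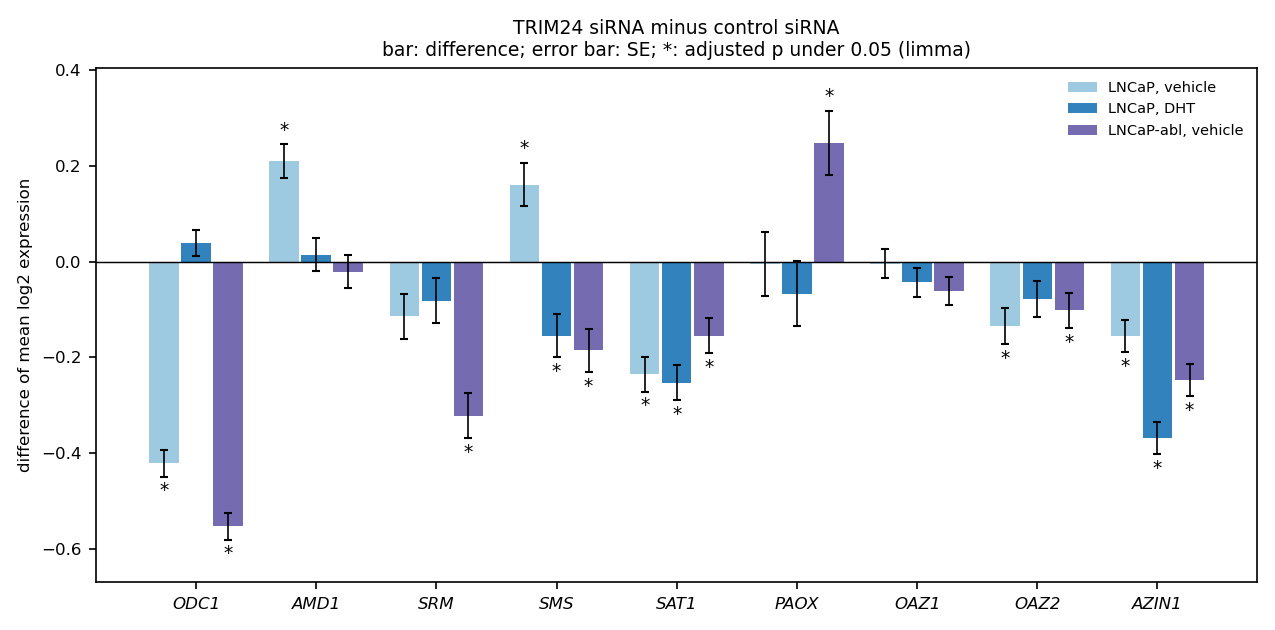
Difference of mean log2 expression between TRIM24 and control siRNA for the 9 polyamine genes in LNCaP (vehicle or DHT) and LNCaP-abl (bars, SE as error bars, n = 3 arrays per group; stars mark an adjusted p under 0.05). ODC1 is at -0.42 and -0.55 without hormone and at 0.039 with DHT, while SAT1 and AZIN1 lie below 0 in all 3 settings.

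Tested directly, the knockdown difference depended on hormone for 4 of the 9 genes. It was higher with DHT for ODC1, beside 5.38% of all tested genes, and lower for AMD1, SMS and AZIN1, beside 5.7%. Between the lines it was lower in LNCaP-abl than in LNCaP for ODC1, AMD1, SRM and SMS, the 4 synthesis enzymes, beside 19.9% of all genes, and higher for 0, beside 8.58%; at an unadjusted p under 0.05 in limma it was higher for 1, PAOX. The calls of ODC1 and SRM were lost with no filter on low signal, so that 2 of the 4 remained, and that of SRM also after quantile normalization and without any of 7 arrays. For ODC1 that difference was -0.13 ± 0.04 (adjusted p = 0.0196; adjusted p = 0.0522 with no filter on low signal). For AMD1 it was -0.23 ± 0.05 (adjusted p = 0.00275), and on its second probe set -0.093 (adjusted p = 0.203). PAOX stood at 0.25 ± 0.10 in the same comparison (adjusted p = 0.0595) on the probe set that its others did not follow.

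Knockdown also moved measures outside the pathway. The 3' minus 5' log2 signal of GAPDH, a measure of RNA quality, went from 0.52 to 0.59 with vehicle, from 0.56 to 0.63 with DHT and from 0.56 to 0.64 in LNCaP-abl. For ACTB it went from 1.87 to 2.05, from 1.85 to 2.19 and from 1.87 to 1.99. With this signal as a covariate ODC1 kept its falls at -0.43 with vehicle and -0.56 in LNCaP-abl, whereas SMS with vehicle (0.17, adjusted p = 0.0695) and with DHT (-0.14, adjusted p = 0.318) did not pass. Without the covariate these SMS differences were 0.16 and -0.15. The signal rose with knockdown in every setting, so the covariate overlaps the knockdown comparison. A call lost under it therefore cannot tell RNA quality from knockdown. Of the 8 mitotic markers 6 fell under vehicle, 6 under DHT and 7 in LNCaP-abl, beside 18%, 20.8% and 28.8% of all genes, with medians of -0.54, -0.70 and -1.75. Their mean level per array went from between 6.98 and 7.04 to between 6.51 and 6.56 with vehicle, from between 7.29 and 7.34 to between 6.64 and 6.73 with DHT, and from between 8.38 and 8.42 to between 6.90 and 6.99 in LNCaP-abl. The part of this fall in the polyamine results was not tested.

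**Figure D4:**
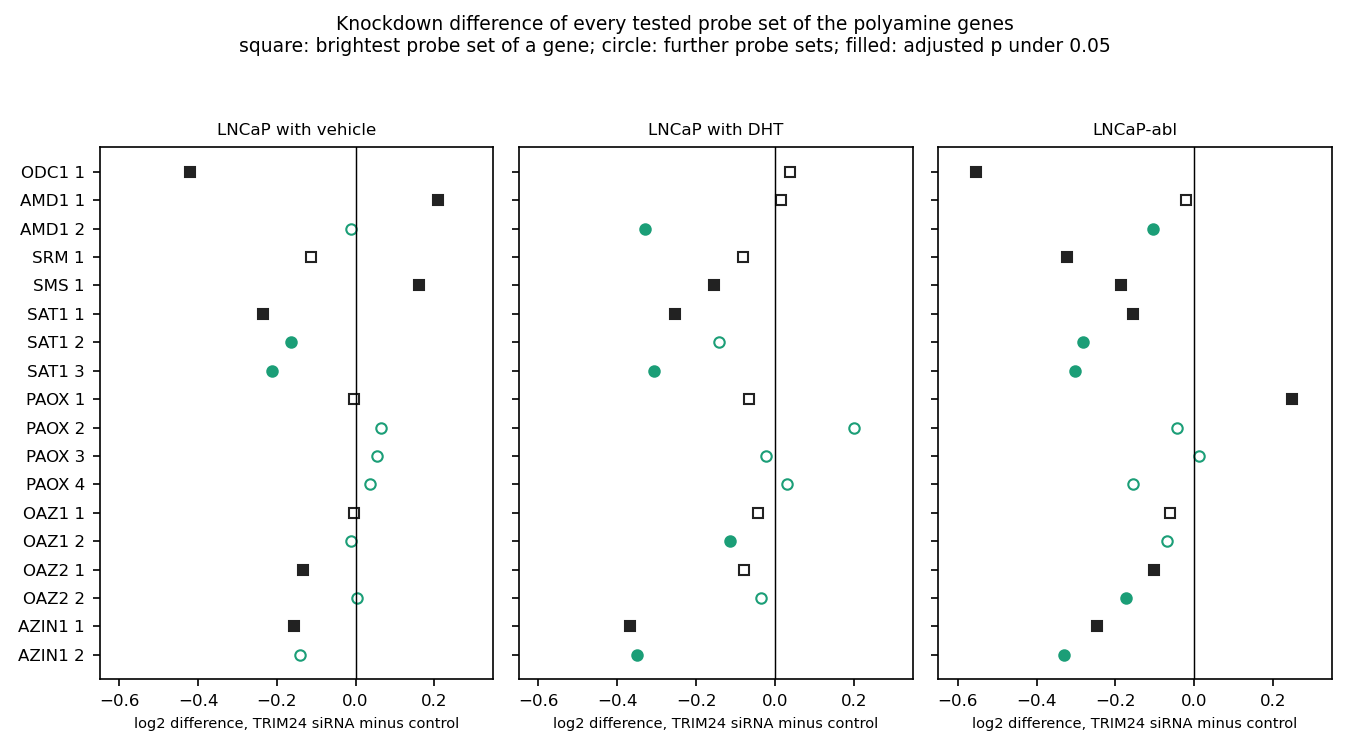
Knockdown difference (log2, TRIM24 minus control siRNA) of every tested probe set of the polyamine genes in LNCaP (vehicle or DHT) and LNCaP-abl; squares are the brightest probe set of a gene, circles further ones, and filled symbols have an adjusted p under 0.05 with every probe set tested alone. The 3 SAT1 probe sets lie together below 0 in each setting, while the 2 AMD1 probe sets separate, at 0.015 and -0.33 with DHT.

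Set against LNCaP, LNCaP-abl had more RNA of ODC1, SRM, OAZ1 and AZIN1 and less of AMD1, SMS, SAT1, PAOX and OAZ2 when both carried control siRNA and vehicle. Thus 4 genes were higher, beside 29.1% of all tested genes, and 5 lower, beside 34.6%. The median of the 9 was -0.15, beside -0.020. SAT1 was lower by 1.52-fold (-0.60 ± 0.04, adjusted p = 3.75e-10), and its further probe sets gave -0.55 and -0.69. AMD1 was at -0.41 ± 0.03 (adjusted p = 3.12e-08) and at -0.64 on its second probe set. PAOX was at -0.46 ± 0.07 (adjusted p = 1.56e-05), with further probe sets at -0.62, 0.14 and -0.80, of which the one at 0.14 did not pass (adjusted p = 0.06). AZIN1 was higher by 0.35 ± 0.03 (adjusted p = 1.4e-07), ODC1 by 0.18 ± 0.03 (adjusted p = 3.22e-05), OAZ1 by 0.16 ± 0.03 (adjusted p = 0.000155) and SRM by 0.15 ± 0.05 (adjusted p = 0.0113). SMS was lower by 0.15 (difference -0.15 ± 0.05, adjusted p = 0.00988) and OAZ2 by 0.17 (-0.17 ± 0.04, adjusted p = 0.000929; -0.43 on its second probe set). In the same arrays all 8 mitotic markers were higher in LNCaP-abl, beside the same 29.1%, with a median of 1.62. The mean level of the 4 fibroblast markers was 6.12 to 6.17 in LNCaP and 6.40 to 6.58 in LNCaP-abl. Of the 4, 2 were higher, beside 29.1% of all genes, and 1 lower, beside 34.6%. Of the 6 luminal markers 5 were lower and 1 higher, beside 34.6% and 29.1% of all genes, with a median of -0.66. The part of these marker lists in the polyamine differences was not tested. The knockdown, DHT and cell line comparisons with vehicle share the LNCaP control arrays.

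Of the other genes around polyamines, 35 were listed in 4 groups and 29 were tested. In LNCaP with vehicle 6 rose and 6 fell with knockdown, beside 20.5% and 18% of all tested genes. With DHT present 9 rose and 10 fell, beside 19.4% and 20.8%, and in LNCaP-abl 5 rose and 10 fell, beside 16.7% and 28.8%. With DHT 9 rose and 9 fell under control siRNA, beside 19.4% and 26.4%, and 7 rose and 5 fell under TRIM24 siRNA, beside 16.9% and 26.6%. In LNCaP-abl 10 were higher and 11 lower than in LNCaP, beside 29.1% and 34.6%. With vehicle the counts thus lie near the shares of all genes. The methionine group holds genes of the methionine cycle and genes that salvage the by-product of the aminopropyl transfers. With DHT and control siRNA it had 5 of 10 genes up and 0 down in limma, beside 19.4% and 26.4% of all genes, and 1 down at an unadjusted p under 0.05. Of the salvage genes APIP and ENOPH1 rose there, and MTAP, MRI1 and ADI1 did not pass. APIP, a methionine salvage enzyme, rose there by 0.94 ± 0.05 (0.54 on the mean of its probe sets) and MAT2A, which makes S-adenosylmethionine, by 0.28 ± 0.04. In the ornithine and arginine group 6 of 8 genes rose with knockdown under DHT and 2 fell, beside 19.4% and 20.8% of all genes. SLC7A2, a cationic amino acid transporter, rose with knockdown by 1.53 ± 0.04 under vehicle, 1.93 ± 0.04 under DHT and 1.22 ± 0.04 in LNCaP-abl; the mean of its probe sets gave 0.53, 0.70 and 0.59. OAT, ornithine aminotransferase, rose by 1.02 ± 0.07, 0.82 ± 0.07 and 0.41 ± 0.07, and ARG2, the mitochondrial arginase that makes ornithine, fell by 0.41, 0.49 and 0.27 in the same order. ASS1, argininosuccinate synthase, was the gene with the largest gap between the lines in this group, with means of 6.38 in LNCaP-abl and 11.39 in LNCaP (-5.01 ± 0.05, 32.2-fold). Of the oxidation, acetylation and transport group SLC18B1, a vesicular polyamine transporter, fell with DHT by 0.96 under control and by 1.004 under TRIM24 siRNA, and SMOX, spermine oxidase, passed in none of the 8 comparisons. OAZ3 fell with knockdown by 0.71, 0.84 and 0.47. In RefSeq the locus of OAZ3 overlaps MRPL9 and TDRKH, that of ARG2 overlaps GPHN and VTI1B, that of APIP overlaps PDHX and that of MAT2A overlaps GGCX. Among the polyamine genes above, AMD1 overlaps CDK19 and SAT1 a further protein-coding locus. The signals of these genes are uncertain to that extent, and whether their probe sets lie in the shared stretches was not tested. EIF5A, the protein that carries the spermidine-derived residue hypusine, fell by 0.22 with knockdown in LNCaP-abl (adjusted p = 0.000627) and passed in no other of the 7 comparisons.

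Where both were called, MYC, a transcription factor known to drive ODC1, moved against ODC1 in 5 comparisons and with it in 1. MYC also had the sign of ODC1 for knockdown under DHT and for the DHT interaction, where only 1 of them was called. It rose with knockdown by 0.44 ± 0.04 under vehicle, 0.63 ± 0.04 under DHT and 0.23 ± 0.04 in LNCaP-abl, where ODC1 stood at -0.42, 0.039 and -0.55. With DHT it fell by 0.39 under control siRNA and by 0.21 under TRIM24 siRNA, where ODC1 rose, and it was lower in LNCaP-abl by 0.68, where ODC1 was higher. In the line interaction both were lower, MYC at -0.21 (adjusted p = 0.0133) and ODC1 at -0.13, and in the DHT interaction MYC stood at 0.18 (adjusted p = 0.06) where ODC1 was at 0.46. These are values of RNA side by side and not a test of the relation.

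The genes most like each member over the 18 arrays, by Pearson's r and given as a description of arrays that share 6 groups, were ERO1A (0.97), C1orf21 (0.97) and BCL2L1 (0.96) for ODC1. For AMD1 they were GBP1, ARFIP1 and EIF2AK4 (each 0.99), and for SRM DUSP28 (0.93), GBE1 (0.92) and SNAPC5 (0.92). For SMS they were HOMER2, MPHOSPH9 and SMAP1 and for SAT1 WWP1, HSD17B4 and MCCC2, with r from 0.994 to 0.995.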

How the data were processed

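Total RNA of 18 samples was measured on 1-colour Affymetrix arrays, 3 per group. The authors deposited log2 expression values; per the submitters' processing notes RMA made them, turning the probes of a probe set into 1 value, and its version is not given in the sources used here. RMA gives arrays a common distribution, so a shift of most transcripts in 1 direction is removed, and dim or very bright values are compressed. Probe sets were named from the platform's annotation, with symbols updated through RefSeq gene identifiers for 41043 of 41097 probe sets with 1 symbol. The brightest probe set on average stood for a gene. Genes whose third-highest array was at least 5.88 (the table's median) were tested, 13607 of 19775.

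Group means of all 18 arrays were fitted with limma 3.58.1 in R 4.3.3 (12 residual degrees of freedom, moderated variances, two-sided, Benjamini-Hochberg over all tested genes, called at an adjusted p under 0.05) for 8 comparisons: knockdown in 3 settings, DHT under either siRNA, the 2 lines with control siRNA, and how the knockdown difference changed with DHT and between lines (interactions). The fit was tested on simulated data. The 9 genes, the pathway and marker lists and the tests were chosen with earlier results of these data known. All 9 genes were named; of the pathway genes the rule took the 3 called genes with the smallest adjusted p in each direction of a comparison, of which a selection is given, and MAT2A, SMOX and EIF5A were named after their values were seen. The likeness rule took the 3 genes with the highest Pearson r. Alternatives were other filters, other ways to choose or average probe sets, median centring, quantile normalization, only the groups compared, a 3' to 5' covariate, a block for the replicate number, and leaving out each array. Promoter windows of 250 bases came from RefSeq. Some marker genes are not reported here.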

Additional observations from a re-analysis of the deposited data

Results flagged for a closer look

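The knockdown difference changed with hormone, by the interaction test of limma over all genes, for ODC1 (0.46, adjusted p = 5.86e-06), AMD1 (-0.20, adjusted p = 0.0191), SMS (-0.32, adjusted p = 0.00493) and AZIN1 (-0.21, adjusted p = 0.00948). AMD1 did not pass with the 3' to 5' covariate (adjusted p = 0.0597) or without the first LNCaP knockdown array with vehicle (adjusted p = 0.0546), and AZIN1 did not on its second probe set (adjusted p = 0.151) or on the mean of its probe sets (adjusted p = 0.09). For ODC1 the fall with vehicle was not seen under DHT, where its signal was highest and changes can be compressed. For SMS the knockdown difference in LNCaP had opposite signs with vehicle and with DHT. Neither of these SMS differences passed with the 3' to 5' covariate (adjusted p = 0.0695 and 0.318). The knockdown difference also differed between LNCaP-abl and LNCaP for ODC1 (-0.13, adjusted p = 0.0196), AMD1 (-0.23, adjusted p = 0.00275), SRM (-0.21, adjusted p = 0.0282) and SMS (-0.35, adjusted p = 0.000928). Of these, ODC1 was lost with no filter on low signal (adjusted p = 0.0522), AMD1 was at -0.093 on its second probe set (adjusted p = 0.203), and SRM was lost with no filter (adjusted p = 0.0516), after quantile normalization (adjusted p = 0.0823) and without any of 7 arrays. Both sets of tests use the same LNCaP vehicle arrays. Each array was left out in turn, but no formal test for an outlying array was made within the groups of 3.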

How the results depend on the processing

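Of 72 gene and comparison pairs of the 9 polyamine genes 46 passed. Of these, 30 passed with the same sign under all 10 alternative settings and without each of the 18 arrays, and 37 without each array. Among all 13607 tested genes, 5237 passed for knockdown under vehicle, 5468 for knockdown under DHT and 6201 for knockdown in LNCaP-abl. DHT moved 6223 genes with control siRNA and 5922 with TRIM24 siRNA, and 8675 differed between the lines. The DHT interaction passed for 1507 and the line interaction for 3880. The comparisons share arrays, so the 72 pairs are not independent. Taking a gene's most variable probe set, the sign turned for AMD1 with knockdown in vehicle (-0.011) and DHT (-0.33) and with DHT under TRIM24 siRNA (-0.021), for PAOX with knockdown in LNCaP-abl (-0.15), vehicle (0.037) and DHT (0.030), for OAZ2 with knockdown in vehicle (0.0037), and for the line interactions of SAT1 (-0.092), PAOX (-0.19) and OAZ2 (-0.18) and the DHT interaction of OAZ2 (-0.039). With the mean of a gene's probe sets it turned for AMD1 with knockdown under DHT (-0.16), for PAOX with knockdown in vehicle (0.038) and DHT (0.035) and with DHT under control siRNA (0.0026), and for the line interactions of SAT1 (-0.043), PAOX (-0.023), OAZ2 (-0.071), ADI1 (-0.10) and SLC7A2 (0.054). Quantile normalization turned AMD1 with knockdown under DHT (-0.0014), OAZ1 with knockdown in vehicle (0.0083) and the DHT interaction of SAT1 (7e-04). Centring array medians turned PAOX (0.0033) and OAZ1 (0.0037) with knockdown in vehicle and the line interaction of OAZ2 (-0.014). The 3' to 5' covariate turned PAOX with knockdown in vehicle (0.021) and the DHT interaction of SRM (-0.015). Among these the reported calls were AMD1 with knockdown in vehicle and with DHT under TRIM24 siRNA, PAOX in LNCaP-abl and OAZ2 in vehicle. The line interactions of ADI1 and SLC7A2 were called too and are given only here. The cause was not tested.

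Leaving out 1 array turned the sign of uncalled values only: AMD1 with knockdown under DHT ran from -0.0037 to 0.027 and in LNCaP-abl from -0.053 to 0.0066, PAOX and OAZ1 with knockdown in vehicle from -0.038 to 0.038 and from -0.011 to 0.0018, OAZ1 with DHT under control siRNA from -0.0056 to 0.035, the DHT interactions of SRM and SAT1 from -0.017 to 0.079 and from -0.039 to 0.0091, and the line interaction of OAZ2 from -3e-04 to 0.058.

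The number of polyamine genes called went from 6 to 3 for knockdown in vehicle with a gene's most variable probe set, from 3 to 5 for knockdown under DHT with that or with the mean of probe sets, and from 4 to 2 for the line interaction with no filter; without 1 array knockdown under DHT had 2 to 4. Over all genes, testing each of 24872 probe sets alone gave 8884 calls for knockdown in vehicle (5237 with 1 probe set per gene), 9311 under DHT (5468), 10554 in LNCaP-abl (6201), 10443 (6223) for DHT under control siRNA, 9942 (5922) under TRIM24 siRNA, 15342 for the lines (8675) and 5933 for the line interaction (3880), since more features were tested. The covariate left 2669 calls for knockdown under DHT, and no filter gave 993 calls for the DHT interaction (1507 with the filter), whose count ran from 1037 to 1601 without 1 array.

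Replicate numbers are shared by the groups, but same-numbered arrays did not deviate together (correlations from -0.17 to 0.15). With the replicate number as a block, calls came to 5115, 5388, 6068, 6145, 5849, 8616, 1364 and 3701 in the order above with the DHT interaction seventh. AMD1 with DHT under TRIM24 siRNA then had an adjusted p of 0.0522 and PAOX in the line interaction 0.0368, and the other polyamine calls were kept.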
